A study of Arabidopsis thaliana with 9 samples.

Results

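Arabidopsis nuclear loci that the TAIR10 gene annotation lacks are mostly non-coding RNA genes found by later annotation rounds, and many of them lie between genes or on the opposite strand of one. Each of the deposited gene tables has a row for 33977 loci. The 4549 loci described here are those whose identifier begins with AT1G to AT5G and does not occur in the deposited TAIR10 annotation. Their positions and types were taken from the RefSeq annotation of TAIR10.1, which holds all 4549. Total RNA was sequenced from whole 4-day-old Arabidopsis thaliana seedlings of ecotype Col, grown on MS plates in continuous white light. The genotypes were a myb30 mutant, a line that over-expresses MYB30 (MYB30-OE) and wild-type Col, with 3 libraries each. The labels name neither the mutant allele nor the promoter behind the over-expression, and they do not say whether replicate libraries came from separate plants. The p-values therefore measure the spread between these libraries, which may be technical.

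MYB30 is a transcription factor of the R2R3-MYB family. It is known as an activator of very-long-chain fatty acid genes during the hypersensitive response of Arabidopsis to pathogens, and it also acts in brassinosteroid and light signalling. Long non-coding RNAs are transcripts without a long reading frame, and those transcribed from the opposite strand of a gene are called antisense RNAs. Small nucleolar RNAs (snoRNAs) guide the chemical modification of ribosomal and spliceosomal RNA. Box C/D snoRNAs carry a C box (TGATGA) near the start and a D box (CTGA) near the end and guide methylation, and box H/ACA snoRNAs carry an ACA near the end and guide pseudouridylation. MicroRNAs are short RNAs cut from a hairpin precursor that pair with their target mRNAs.

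The sequences of 7 snoRNA loci are given first, since these are the snoRNAs of the group that rose in myb30 seedlings. They are from RefSeq TAIR10.1, 5′ to 3′, with capitals marking a D box in the last 15 bases or an ACA in the last 8 bases. No TGATGA occurs in the first 25 bases of any of them.
AT5G07095 (chr5:19624548-19624687, + strand): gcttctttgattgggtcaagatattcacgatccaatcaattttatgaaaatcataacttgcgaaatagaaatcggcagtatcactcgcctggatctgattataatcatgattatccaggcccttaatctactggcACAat
AT5G07105 (chr5:19624720-19624869, + strand): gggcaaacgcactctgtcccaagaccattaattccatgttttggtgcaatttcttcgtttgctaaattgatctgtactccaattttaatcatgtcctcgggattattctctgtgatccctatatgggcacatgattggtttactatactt
AT2G04955 (chr2:2184672-2184820, - strand): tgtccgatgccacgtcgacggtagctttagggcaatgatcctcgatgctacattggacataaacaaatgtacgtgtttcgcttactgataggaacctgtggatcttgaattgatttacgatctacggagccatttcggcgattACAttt
AT2G04965 (chr2:2185022-2185087, - strand): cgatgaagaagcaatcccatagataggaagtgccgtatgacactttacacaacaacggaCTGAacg
AT1G07393 (chr1:17483905-17483957, - strand): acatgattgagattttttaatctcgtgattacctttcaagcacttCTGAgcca
AT1G09787 (chr1:29422295-29422360, + strand): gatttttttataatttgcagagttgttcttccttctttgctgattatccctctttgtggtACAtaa
AT1G09867 (chr1:29911240-29911379, - strand): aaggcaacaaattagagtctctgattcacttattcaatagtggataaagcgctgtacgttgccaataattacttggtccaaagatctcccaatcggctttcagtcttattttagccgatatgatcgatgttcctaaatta

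For 3 long non-coding RNAs that lie between genes and changed in myb30 seedlings, the 250 bases upstream of the annotated start are given from RefSeq TAIR10.1 on the strand of the RNA. None of the 3 windows overlaps another annotated locus. Capitals mark the letters of 2 sequences that MYB proteins of this class are known to bind (AACAAAC and ACCAAAC) and of a TATA element (TATAAA), each searched on both strands.
AT3G05945 (chr3:11510511-11510760, - strand): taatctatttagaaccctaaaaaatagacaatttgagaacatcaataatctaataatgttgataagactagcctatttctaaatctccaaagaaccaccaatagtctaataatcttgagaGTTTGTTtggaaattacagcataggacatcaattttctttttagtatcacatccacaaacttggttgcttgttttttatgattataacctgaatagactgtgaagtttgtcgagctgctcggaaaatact
AT1G07367 (chr1:17388739-17388988, + strand): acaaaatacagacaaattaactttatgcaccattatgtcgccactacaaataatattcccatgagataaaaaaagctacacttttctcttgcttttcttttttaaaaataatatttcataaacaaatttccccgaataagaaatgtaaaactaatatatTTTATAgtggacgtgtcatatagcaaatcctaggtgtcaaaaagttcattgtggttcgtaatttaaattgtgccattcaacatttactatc
AT4G06195 (chr4:8345854-8346103, + strand): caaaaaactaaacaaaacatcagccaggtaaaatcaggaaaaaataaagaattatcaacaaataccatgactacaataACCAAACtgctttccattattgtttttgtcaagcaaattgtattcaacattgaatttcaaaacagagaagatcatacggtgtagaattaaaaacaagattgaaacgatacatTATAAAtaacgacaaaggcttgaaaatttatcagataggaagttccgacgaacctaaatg

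AT3G05945 holds AACAAAC on the reverse strand at base 121 and AT4G06195 holds ACCAAAC at base 79 of the window. Over all annotated genes, 11.4% of such windows held AACAAAC and 7.87% held ACCAAAC. The shares were 12.4% and 6.57% over the 137 loci absent from TAIR10 that passed the test in at least 1 comparison, and 10.3% and 7.41% over all such loci with a window. CACGTG, the G-box bound by light-signalling factors, was in 2.48% of the windows of these loci and in 5.39% of all windows. TATAAA was in 36.4% of their windows and in 44.6% of all windows. A match of letters describes the window and does not show binding.

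By RefSeq type, the 4549 loci comprise 2433 non-coding RNAs that overlap no TAIR10 gene, 940 non-coding RNAs on the opposite strand of a TAIR10 gene and 10 on the same strand as one. They further comprise 717 protein-coding genes, 285 small nuclear or nucleolar RNAs, 147 microRNA genes, 12 transposable element genes, 3 short peptide genes and 2 transfer RNAs. Most are small and simple, with 1 exon in 3555 of them and a median exon length of 308 bases. Of the 4549, 3014 overlap no TAIR10 gene, and these lie at a median of 721 bases from the nearest one.

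Few of these loci had more than a handful of reads in 4-day-old seedlings. At least 1 read was counted for 34.6% of them in the myb30 and Col libraries, 34.1% in the MYB30-OE and Col libraries and 34.5% in the myb30 and MYB30-OE libraries, against 85.8%, 85.4% and 85.6% of the other nuclear loci. Over all libraries, 1753 of the 4549 had a read and 2796 had none. The loci with reads had a median level of 0.0332, 0.0352 and 0.0292 CPM (reads scaled to the size of the library) in these comparisons, while all rows with reads had medians of 8.25, 8.13 and 8.37 CPM. All together they held 0.0678%, 0.0659% and 0.0675% of the reads. Only 98 reached a mean of 1 CPM and 7 reached 10 CPM. Protein-coding loci made up 57 of those 98, non-coding RNAs between genes 19, small nuclear or nucleolar RNAs 9, antisense RNAs 8, microRNA genes 3 and same-strand non-coding RNAs 2.

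**Figure D1:**
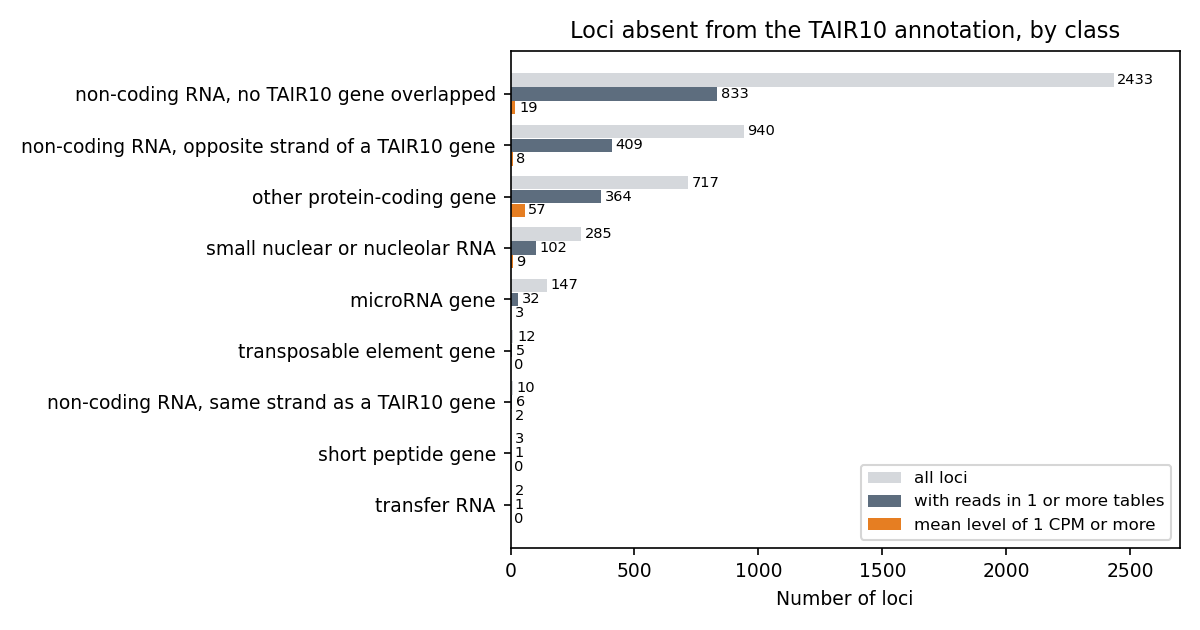
Number of loci absent from the TAIR10 annotation in each class, and how many of them had at least 1 read or a mean of at least 1 CPM. Of the 2433 non-coding RNAs that overlap no TAIR10 gene, 833 had reads and 19 reached 1 CPM, while 364 of the 717 protein-coding loci had reads and 57 reached 1 CPM.

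Levels are means over the 3 libraries of a genotype, since the deposited tables hold no value for a single library and so no spread around these means. They follow from the deposited average and fold change. The total mapped depth behind a table is implied to be 33136607 to 35210921 reads per library, so that 1 read over 3 libraries stands for 0.00947 to 0.0101 CPM. In all rows with up to 10 reads, the implied reads lay within 0.2 of a whole number. MYB30 itself (AT3G28910, chr3:10911132-10913190) had 4.55 CPM in myb30, 622 CPM in MYB30-OE and 32.0 CPM in Col. Its direction was used to settle which genotype is on top of the deposited fold changes, so it is no independent check of the labels. In the authors' deposited table the log2 fold change of MYB30 was -2.82 in myb30 against Col and 4.28 in MYB30-OE against Col.

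Defining markers of leaf and root were present in all genotypes. LHCB1.3, a chlorophyll-binding protein of photosynthetic cells, had 8411 CPM in myb30, 14292 CPM in MYB30-OE and 12221 CPM in Col, and EXPA7, an expansin of root hairs, had 25.2, 16.0 and 10.6 CPM. Seed storage protein genes were also present, and CRA1, a cruciferin, had 238 CPM in myb30, 41.5 CPM in MYB30-OE and 4.99 CPM in Col. Of 9 such markers of photosynthetic, root hair and seed cells, 6 were higher and 3 lower in myb30 than in Col, and 8 of the 9 were higher in MYB30-OE than in Col. The 3 lower in myb30 were the photosynthetic ones, with log2 fold changes between -0.71 and -0.55 in the authors' deposited table. The part of these markers in the results below was not tested. In whole seedlings, fewer cells of a type and less RNA per cell cannot be told apart.

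The rows of these loci also depend on what else lies under them. Where at least 95% of the exon bases of a TAIR10 gene lie under such loci of the opposite strand, 5 of 37 genes had reads (13.5%), against 23074 of 26596 genes (86.8%) with no such overlap. Where less than 50% lie under one, 975 of 1000 (97.5%) had reads. Among the loci absent from TAIR10, 40 of 572 (6.99%) had reads where at least 95% of their exon bases lie in TAIR10 exons, 189 of 385 (49.1%) where 50% to 95% do, 336 of 450 (74.7%) below 50%, and 1188 of 3142 (37.8%) where none do. Reads were thus scarce for TAIR10 genes almost wholly under such loci of the opposite strand. They were also scarce for such loci that lie almost wholly in TAIR10 exons of either strand. Each share looks at one side only, so whether both members of a pair lacked reads was not tested. Some of the 40 had many reads, such as AT2G11225 and AT4G01395, with 100% and 97.3% of their exon bases in TAIR10 exons. For AT2G11225 no overlapped TAIR10 gene with a row of its own was found, while AT4G01395 overlaps AT4G01400. The labels do not say whether the counting used strand, so reads of a locus and of an overlapping gene cannot be told apart.

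A locus was counted as higher or lower when the deposited p-value, after Benjamini-Hochberg adjustment over all rows with reads, was under 0.05. In myb30 against Col, 38 of 1572 loci with reads were higher and 35 lower, beside 10.8% and 10.7% of all 25713 rows with reads, and among loci that overlap no TAIR10 gene 29 were higher and 14 lower. In MYB30-OE against Col, 13 of 1550 were higher and 18 lower, beside 5.99% and 5.49% of all rows. In myb30 against MYB30-OE, 66 of 1569 were higher and 43 lower, beside 16.2% and 15.4% of all rows. The shares called among the loci absent from TAIR10 were 4.64%, 2% and 6.95%, beside 21.5%, 11.5% and 31.6% of all rows. The comparisons of both lines with Col share the Col libraries, and the comparison of the lines shares its libraries with each of them.

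Low levels went with low shares of calls in all rows. Under 0.1 CPM, 9 of 1108 of these loci (0.812%) were called in myb30 against Col, beside 2.36% of all rows at that level. Between 0.1 and 1 CPM, 45 of 366 (12.3%) were called, beside 15.5%. At 1 CPM or more, 19 of 98 (19.4%) were called, beside 26.6%. For MYB30-OE against Col, the counts in these bands were 6 of 1076 (0.558%, beside 1.26%), 17 of 377 (4.51%, beside 8.34%) and 8 of 97 (8.25%, beside 14.1%). For myb30 against MYB30-OE, they were 15 of 1110 (1.35%, beside 3.23%), 62 of 364 (17.0%, beside 21.5%) and 32 of 95 (33.7%, beside 39.1%). Within each of these bands the share of calls was lower than that of all rows. Among the few loci at 10 CPM or more, which the last band includes, the counts were 2 of 10 (20%, beside 29.3%) in myb30 against Col, 1 of 7 (14.3%, beside 16%) in MYB30-OE against Col and 7 of 9 (77.8%, beside 42.8%) in myb30 against MYB30-OE, the last above the share of all rows. These differences were not tested.

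**Figure D2:**
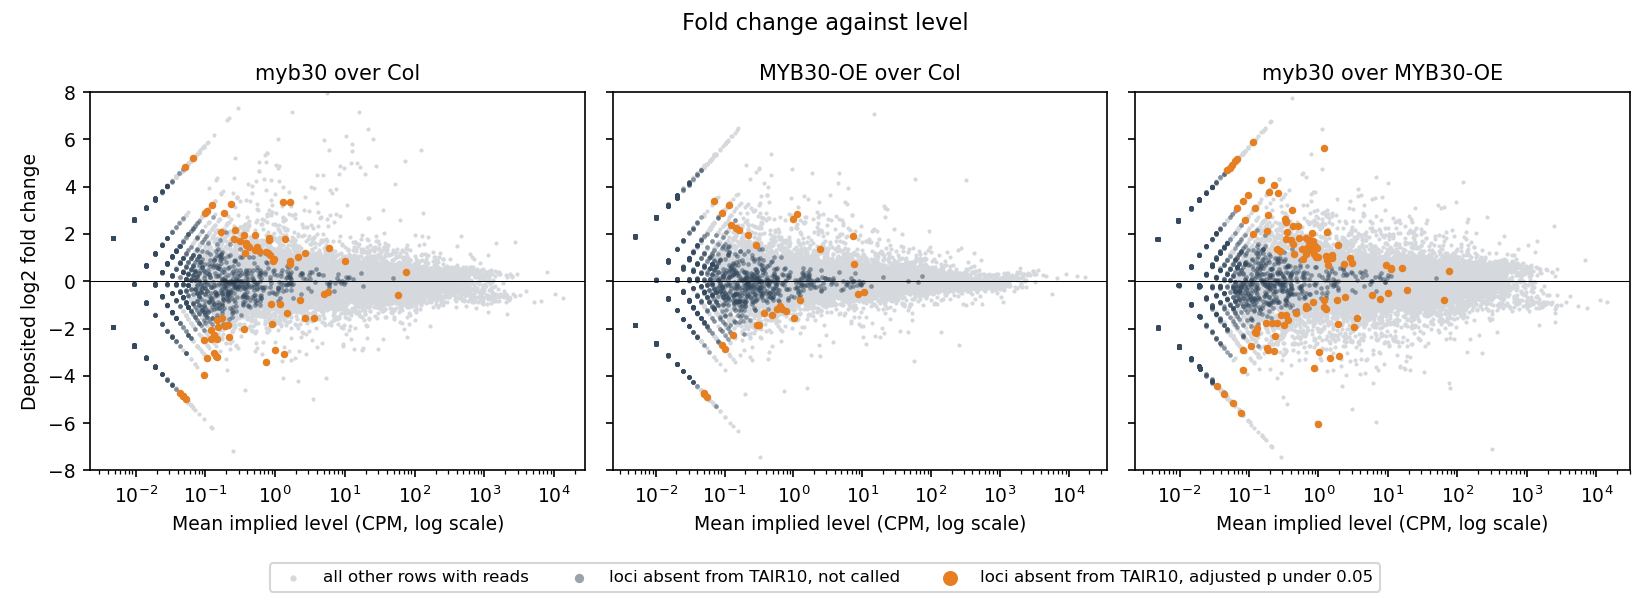
Deposited log2 fold change (y axis) against mean level in CPM (x axis, log scale) in each comparison, with loci absent from TAIR10 in dark points, those at an adjusted p under 0.05 in orange and all other rows with reads in grey. The scatter narrows with level, and the called loci lie mostly between 0.1 and 10 CPM, with 62 of the 73 called in myb30 against Col in that range.

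The non-coding RNAs between genes gave the most calls of any class in both comparisons of myb30, and fewer than the protein-coding loci in MYB30-OE against Col. In myb30 against Col, 18 were higher and 13 lower of 714 with reads, beside 10.8% and 10.7% of all rows. The counts were 5 and 5 of 698 in MYB30-OE against Col, beside 5.99% and 5.49%. They were 25 and 15 of 703 in myb30 against MYB30-OE, beside 16.2% and 15.4%. This class was thus called less often than all rows. Among those that fell in myb30, AT1G07367 and AT1G07373 (the second chosen after its values were seen) are neighbours on chromosome 1 that lie 2874 bases apart on opposite strands. AT1G07373 (chr1:17392374-17393026, - strand) had 0.121 CPM in myb30, 1.61 CPM in MYB30-OE and 1.34 CPM in Col. Its log2 fold change in the authors' deposited table was -3.41 against Col (Benjamini-Hochberg adjusted p = 5.68e-12) and -3.69 against MYB30-OE. AT1G07367 (chr1:17388989-17389500, + strand) had 0.280 CPM in myb30, 2.70 CPM in MYB30-OE and 2.42 CPM in Col, and its log2 fold change in myb30 against Col was -3.08 in the authors' deposited table. Both RNAs were thus low in the mutant and near the Col level in the over-expresser.

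The protein-coding genes beside this pair, AT1G47400 and AT1G47395, encode short IRON MAN peptides, which are known to promote iron uptake, and fell as well. By RefSeq positions, which are used for all distances to single genes given here, AT1G47400 lies 2504 bases from AT1G07367. It had 0.901 CPM in myb30, 4.56 CPM in MYB30-OE and 4.17 CPM in Col, and AT1G47395, 5159 bases from AT1G07367, had 1.32, 7.30 and 8.16 CPM. Their log2 fold changes in myb30 against Col in the authors' deposited table were -2.20 and -2.62. AT1G47410, on the other side of the pair and 1046 bases from AT1G07373, did not pass the test, with a log2 fold change of -0.51 in the authors' deposited table. The decrease was therefore shared by both RNAs and by these genes on one side of them, and was not detected in the nearest gene on the other side.

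AT2G06995 had 0.226 CPM in myb30, 1.81 CPM in MYB30-OE and 1.74 CPM in Col. This was a log2 fold change of -2.91 in myb30 against Col in the authors' deposited table (Benjamini-Hochberg adjusted p = 1.18e-11). It lies 57 bases from TRM26, a gene of the TON1 recruiting motif family, which had 8.99, 20.3 and 15.3 CPM and fell by 0.77 on the log2 scale in myb30, per the authors' deposited table. AT4G06195, 780 bases from NF-YB3, a subunit of a CCAAT-binding complex, had 1.83 CPM in myb30, 5.39 CPM in MYB30-OE and 5.32 CPM in Col. In the authors' deposited table its log2 fold change in myb30 was -1.54 (Benjamini-Hochberg adjusted p = 3.42e-07), and that of NF-YB3 was -0.79. AT4G14548, which is nearer to AT4G06195 at 509 bases, had 2.88 CPM in myb30, 3.65 CPM in MYB30-OE and 3.79 CPM in Col and did not pass the test, with -0.41 in the authors' deposited table.

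For the 18 RNAs between genes that rose in myb30, the nearest TAIR10 gene with reads was lower for 3, higher for 2 and not called for 13. For the 13 that fell, it was lower for 3, higher for 1 and not called for 9. Of all rows with reads, 10.7% were lower and 10.8% higher in this comparison. The counts of neighbours are small, and a difference from all rows was not tested. AT5G07995 and AT1G09217, chosen after their values were seen, rose beside genes that fell. AT5G07995 had 0.820 CPM in myb30, 0.221 CPM in MYB30-OE and 0.290 CPM in Col, with a log2 fold change of 1.46 in myb30 in the authors' deposited table (Benjamini-Hochberg adjusted p = 0.00272). ORG1, a protein kinase gene 279 bases away, had 25.5 CPM in myb30, 132 CPM in MYB30-OE and 129 CPM in Col, a log2 fold change of -2.35 in the authors' deposited table. AT1G09217, 438 bases from MYBL2, a MYB repressor of flavonoid synthesis, had 0.180 CPM in myb30, 0.0108 CPM in MYB30-OE and 0.0203 CPM in Col, while MYBL2 had 4.19, 14.7 and 8.71 CPM. With 19 reads in myb30 and 2 in Col, the reads of AT1G09217 were 9.5 times as many in myb30, with an exact 95% interval of 2.29 to 84.1. For MYBL2 the log2 fold change in myb30 was -1.06 in the authors' deposited table.

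AT1G07483 rose at a higher level, with 3.78 CPM in myb30, 1.86 CPM in MYB30-OE and 1.61 CPM in Col and a log2 fold change of 1.21 in the authors' deposited table (Benjamini-Hochberg adjusted p = 4.97e-05). AT1G07027 and AT5G00885 had no read in Col. They were at least 3.64-fold and at least 4.66-fold higher in myb30, against a floor of 3 reads over the 3 Col libraries. AT5G01775, a non-coding RNA on the same strand as the snoRNA gene SNOR77 that it overlaps, had 2.83 CPM in myb30, 0.978 CPM in MYB30-OE and 1.36 CPM in Col. The row of SNOR77 had 0 reads. For AT5G01775 the log2 fold change in myb30 was 1.03 in the authors' deposited table (Benjamini-Hochberg adjusted p = 0.00167).

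Some loci stood apart from Col in both lines. AT3G05945 had 8.42 CPM in myb30, 11.8 CPM in MYB30-OE and 3.16 CPM in Col. Its log2 fold change in the authors' deposited table was 1.40 in myb30 (Benjamini-Hochberg adjusted p = 9.74e-08) and 1.91 in MYB30-OE (Benjamini-Hochberg adjusted p = 2.89e-27). AT3G05955 had 2.92 CPM in myb30, 1.72 CPM in MYB30-OE and 0.278 CPM in Col, with log2 fold changes of 3.35 and 2.63 in the authors' deposited table. AT3G07255, annotated as a nuclear transport factor 2 and RNA recognition motif protein, and AT4G06265, a non-coding RNA chosen after its values were seen, were likewise higher in both lines. AT3G07255 had 0.182 CPM in myb30, 0.215 CPM in MYB30-OE and 0.0201 CPM in Col, and AT4G06265 had 0.428, 0.352 and 0.0898 CPM. AT3G06245 and AT4G05097 had no read in either line, with 11 and 10 reads over the 3 Col libraries. They were at least 3.68-fold and 3.35-fold lower in myb30 and at least 3.66-fold and 3.33-fold lower in MYB30-OE, against a floor of 3 reads over the libraries of the line. In all, 9 loci were called in both lines, 6 of them in the same direction and 3 in opposite directions. Both comparisons use the same Col libraries.

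AT3G05945 and AT3G05955 lie 598 kb and 674 kb from MYB30. Within 2 Mb of MYB30, 5 of 41 loci absent from TAIR10 (12.2%) were called in myb30 against Col, against 68 of 1531 (4.44%) elsewhere. For MYB30-OE against Col, 2 of 43 (4.65%) were called near MYB30, against 29 of 1507 (1.92%) elsewhere. Over all rows the shares near MYB30 and elsewhere were 20.1% and 21.7% in myb30 and 11.7% and 11.5% in MYB30-OE. The called locus nearest to it, AT3G05635, chosen after its values were seen, lies 52.3 kb from MYB30 and had 0.00860 CPM in myb30, 0.0499 CPM in MYB30-OE and 0.186 CPM in Col. For AT3G05635 these are 1 read in myb30, 5 in MYB30-OE and 19 in Col. The difference between the shares was not tested, and the counts near MYB30 are small.

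**Figure D3:**
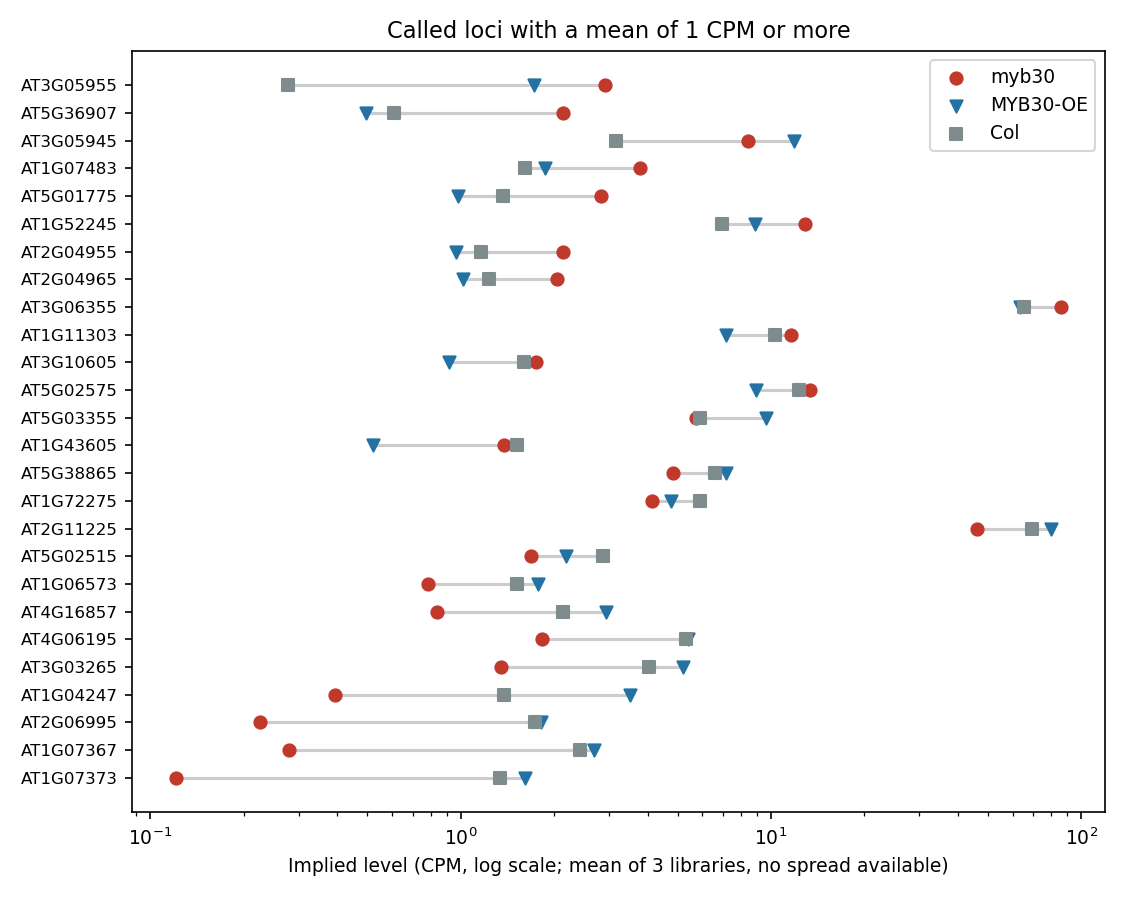
Mean level in CPM (x axis, log scale) in myb30, MYB30-OE and Col of the 26 loci absent from TAIR10 that reached 1 CPM and passed the test in either line against Col. AT1G07367 and AT1G07373 sit low in myb30, at 0.280 and 0.121 CPM, while AT3G05945 sits above Col in both lines. Lines join the 3 values of a locus, and no spread between libraries is available.

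The antisense non-coding RNAs moved mostly one way in the mutant. In myb30 against Col, 12 were lower and 0 higher of 394 with reads, beside 10.7% and 10.8% of all rows. At an unadjusted p under 0.05 there were 26 lower and 2 higher. In myb30 against MYB30-OE, 11 were lower and 0 higher of 382, beside 15.4% and 16.2% of all rows. There 15 were lower and 3 higher at an unadjusted p under 0.05. Between MYB30-OE and Col, 2 were higher and 1 lower of 386, beside 5.99% and 5.49% of all rows. In each comparison the antisense RNAs were thus called less often than all rows, in both directions. Among antisense RNAs with at least 30 reads, 21 of 93 had a positive log2 fold change in myb30 against Col in the authors' deposited table, with a median of -0.51. For comparison 51.8% of all genes with that many reads had a positive one. For MYB30-OE against Col, 39 of 91 were positive, with a median of -0.08, beside 50.4% of all genes.

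Much of this signal lay over introns. Of the 940 antisense RNAs, 365 lie mostly in introns of TAIR10 genes, taken over both strands, and of the 409 with reads 307 do. Of the 12 that fell in myb30, 10 lie mostly in introns, and all 12 lie fully within the spans of TAIR10 genes. The gene on the other strand was also lower for 5 of the 12, higher for 1 and not called for 6. Among those with at least 30 reads, the median log2 fold change in myb30 against Col was -0.47 for mostly intronic ones, 58 of 77 negative, and -0.59 for the others, 14 of 16 negative, in the authors' deposited table. In MYB30-OE against Col the medians were -0.07, with 42 of 75 negative, and -0.26, with 10 of 16 negative. In myb30 against MYB30-OE they were -0.30 for mostly intronic ones, with 53 of 66 negative, and -0.02 for the others, with 7 of 14 negative. The lean of the others in myb30 against Col was thus not seen against MYB30-OE, where they are few.

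AT1G04247 (chr1:1120225-1122526, + strand) lies opposite KCS2 (AT1G04220, chr1:1119699-1122526, - strand), a 3-ketoacyl-CoA synthase that elongates very-long-chain fatty acids. Of its 2302 bases, 1258 lie in KCS2 exons and 1044 in KCS2 introns. It had 0.395 CPM in myb30, 3.51 CPM in MYB30-OE and 1.38 CPM in Col. KCS2 had 2.88 CPM in myb30, 13.2 CPM in MYB30-OE and 6.61 CPM in Col, the same order. In the authors' deposited table the log2 fold change of AT1G04247 was -1.79 in myb30 against Col (Benjamini-Hochberg adjusted p = 3.71e-07) and 1.36 in MYB30-OE against Col (Benjamini-Hochberg adjusted p = 5.47e-09). For KCS2 the authors' deposited table gives -1.20 and 1.00, which are smaller in size than those of the antisense RNA. As 70.5% of the KCS2 exon bases lie under AT1G04247, reads of the pair cannot be told apart without strand.

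AT3G03265 (chr3:5505992-5506436, - strand) lies opposite DELTA-TIP, an aquaporin of the vacuole membrane, with 89.7% of its bases in the intron. It had 1.35 CPM in myb30, 5.19 CPM in MYB30-OE and 4.03 CPM in Col. DELTA-TIP had 368 CPM in myb30, 787 CPM in MYB30-OE and 650 CPM in Col. The log2 fold changes in myb30 against Col in the authors' deposited table were -1.58 for AT3G03265 (Benjamini-Hochberg adjusted p = 3.96e-10) and -0.83 for DELTA-TIP. AT1G05207, opposite the light-harvesting gene LHCB6 and chosen after its values were seen, had 0.583 CPM in myb30, 1.07 CPM in MYB30-OE and 1.14 CPM in Col. In the authors' deposited table its log2 fold change in myb30 was -0.96 (Benjamini-Hochberg adjusted p = 0.0143), and that of LHCB6 was -0.66. In both pairs the gene fell too, and whether the sizes differ was not tested.

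Other antisense RNAs fell beside a gene that was not called lower. AT4G09375, chosen after its values were seen, lies 90.2% in introns of GBF1, a bZIP factor that binds G-boxes, and had 0.139 CPM in myb30, 0.512 CPM in MYB30-OE and 0.586 CPM in Col. In the authors' deposited table the log2 fold change in myb30 was -2.03 (Benjamini-Hochberg adjusted p = 0.000672). GBF1 had 34.4, 44.9 and 40.5 CPM and did not pass the test, with -0.25 in the authors' deposited table. AT4G07855 fell by 2.43 on the log2 scale in myb30, while PPI1 on the other strand, an interactor of the plasma membrane proton pump, rose by 0.32, both per the authors' deposited table. The members of such pairs did not always move together. AT1G06573, opposite AT1G32460, had 0.784 CPM in myb30, 1.77 CPM in MYB30-OE and 1.52 CPM in Col, a log2 fold change of -0.95 in myb30 against Col in the authors' deposited table (Benjamini-Hochberg adjusted p = 0.0158). AT5G02515, which lies 95.8% in introns of AT5G16030, had 1.68 CPM in myb30, 2.18 CPM in MYB30-OE and 2.88 CPM in Col, with -0.78 in the authors' deposited table (Benjamini-Hochberg adjusted p = 0.0124).

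Across pairs of a locus absent from TAIR10, of any class, at 0.3 CPM or more and a gene on the opposite strand at 1 CPM or more, Pearson's r between the 2 log2 fold changes was 0.56 in myb30 against Col (Spearman's rho 0.45, 37 pairs). It was 0.39 in MYB30-OE against Col (rho 0.30, 40 pairs) and 0.43 in myb30 against MYB30-OE (rho 0.48, 41 pairs). The 2 fold changes had the same sign in 23 of 37, 23 of 40 and 22 of 41 of these pairs. With loci at 0.1 CPM or more, r was 0.37 (120 pairs), 0.14 (129 pairs) and 0.40 (116 pairs), and at 1 CPM or more it was 0.91 (7 pairs), 0.38 (10 pairs) and 0.96 (8 pairs), so the values depend on the level required. For loci that overlap a gene on its own strand the values at 0.3 CPM or more were 0.06 (rho 0.06, 27 pairs), 0.12 (rho 0.27, 25 pairs) and 0.14 (rho 0.12, 26 pairs). These are descriptions across loci, which share libraries and, without strand, possibly reads.

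**Figure D4:**
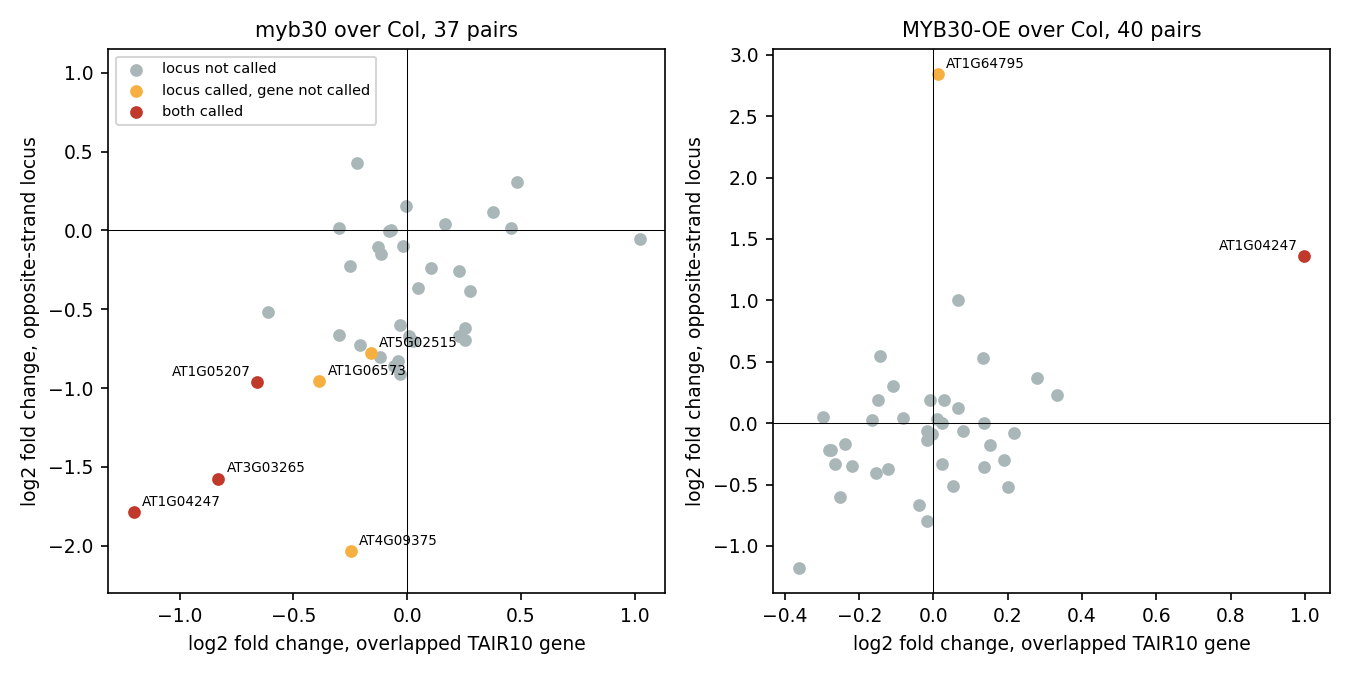
Deposited log2 fold change of opposite-strand loci absent from TAIR10 (y axis) against that of the TAIR10 gene they overlap (x axis), in myb30 over Col and MYB30-OE over Col, coloured by which of the pair passed the test. In myb30 over Col r was 0.56 over the 37 pairs, of which 23 had the same sign on both axes. AT1G04247 and KCS2 lie at -1.79 and -1.20.

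Among the snoRNAs most calls were of higher levels in myb30. Of 90 snoRNAs with reads that are absent from TAIR10, 7 were higher (7.78%, beside 10.8% of all rows) and 1 lower (1.11%, beside 10.7%) in myb30 against Col, with a median log2 fold change of 0.31 in the authors' deposited table. In myb30 against MYB30-OE, 17 of 93 were higher (18.3%, beside 16.2%) and 0 lower (beside 15.4%), with a median of 0.66, and the small nuclear and nucleolar RNAs together had 19 higher and 0 lower at an unadjusted p under 0.05. In MYB30-OE against Col, 0 of 91 were higher (beside 5.99%) and 3 lower (3.30%, beside 5.49%), with a median of -0.42, and the same wider class had 0 higher and 9 lower at an unadjusted p under 0.05. The snoRNAs of the TAIR10 annotation leaned the same way, with 3 higher and 0 lower of 24 in myb30 against Col, 0 and 0 of 25 in MYB30-OE against Col, and 7 higher and 0 lower of 25 in myb30 against MYB30-OE. For the snoRNAs absent from TAIR10, the share called higher in the comparisons of myb30 was thus near or below that of all rows. For those in TAIR10 it was 12.5% against Col and 28% against MYB30-OE, above all rows, though the loci are few. The share called lower was below that of all rows in both groups. These shares are not matched for level. Among all rows at 0.1 to 1 CPM, 8.76% were called higher in myb30 against Col and 10.7% in myb30 against MYB30-OE. No small nuclear RNA was called in any comparison. Of 41 snoRNAs with at least 30 reads, 28 had a positive log2 fold change in myb30 and 6 in MYB30-OE, both against the same Col libraries.

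Several of the 7 that rose lie in pairs. AT5G07095 and AT5G07105 are 33 bases apart. AT5G07095 had 0.834 CPM in myb30, 0.161 CPM in MYB30-OE and 0.210 CPM in Col, with a log2 fold change of 1.93 in myb30 against Col in the authors' deposited table (Benjamini-Hochberg adjusted p = 4.77e-05). AT5G07105 had 0.584 CPM in myb30, 0.0959 CPM in MYB30-OE and 0.181 CPM in Col, with 1.63 in the authors' deposited table (Benjamini-Hochberg adjusted p = 0.00406). AT2G04955 and AT2G04965, 202 bases apart, had similar levels. AT2G04955 had 2.13 CPM in myb30, 0.964 CPM in MYB30-OE and 1.16 CPM in Col, and AT2G04965 had 2.05, 1.02 and 1.23 CPM. AT2G04965 has 2 near-identical copies elsewhere in the genome, so its value is uncertain. Within each pair both snoRNAs rose.

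AT1G09787 and AT1G09867 are named, after their values were seen, to complete the 7. AT1G09787 had 1.09 CPM in myb30, 0.337 CPM in MYB30-OE and 0.470 CPM in Col. MIR775, a microRNA gene 92 bases away, had 1.10 CPM in myb30, 0.372 CPM in MYB30-OE and 0.549 CPM in Col, a log2 fold change of 0.97 in myb30 against Col in the authors' deposited table (Benjamini-Hochberg adjusted p = 0.026). AT1G07393 had 0.486 CPM in myb30, 0.0328 CPM in MYB30-OE and 0.141 CPM in Col. AT1G09867 had 1.27 CPM in myb30, 0.383 CPM in MYB30-OE and 0.657 CPM in Col. The 1 snoRNA that fell in myb30, AT2G08585, had 0.0790 CPM in myb30, 0.105 CPM in MYB30-OE and 0.304 CPM in Col.

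Between MYB30-OE and Col the 3 snoRNAs that fell were AT1G06547, AT5G08495 and AT5G02575. AT1G06547 had 0.459 CPM in MYB30-OE and 1.09 CPM in Col, a log2 fold change of -1.26 in the authors' deposited table (Benjamini-Hochberg adjusted p = 0.00763). AT5G02575, the most abundant snoRNA of the group, had 13.4 CPM in myb30, 8.94 CPM in MYB30-OE and 12.3 CPM in Col. The fall was narrower there, with -0.46 in MYB30-OE against Col in the authors' deposited table (Benjamini-Hochberg adjusted p = 0.00326). Both kinds of snoRNA occur among the loci called. Of all 216 snoRNAs absent from TAIR10, 68 held the C and D boxes in the windows searched and 65 held ACA in the last 8 bases. Of the 17 higher in myb30 than in MYB30-OE, 3 held both boxes and 6 held ACA.

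**Figure D5:**
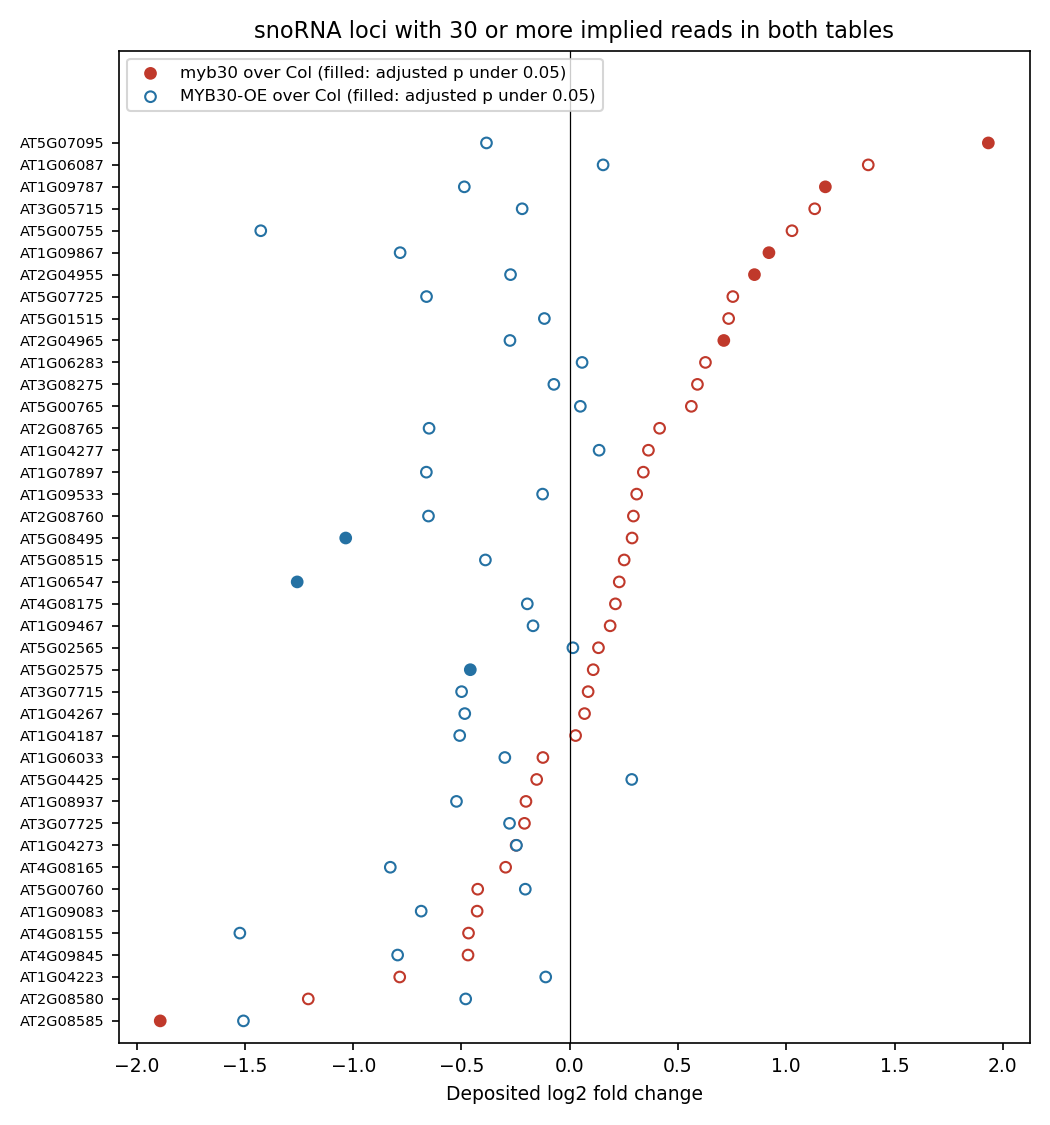
Deposited log2 fold change (x axis) of the 41 snoRNA loci absent from TAIR10 with at least 30 reads, 1 row each, in myb30 over Col and in MYB30-OE over Col, with filled points at an adjusted p under 0.05. In myb30 28 lie right of 0, and in MYB30-OE 35 lie left of 0, both against the same Col libraries.

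Of 21 genes for RNA processing and decay, which cover microRNA biogenesis, nonsense-mediated decay, the exosome and the XRN exonucleases, 1 was higher in myb30 against Col (4.76%, beside 21.5% of all rows called) and 1 was higher in MYB30-OE against Col (4.76%, beside 11.5%). In myb30 against MYB30-OE 2 were higher (9.52%, beside 31.6%), RRP41 and AGO7, an Argonaute protein that acts with miR390, with 0.53 and 0.68 in the authors' deposited table. The one in myb30 against Col was RRP41, a core subunit of the exosome that trims and degrades non-coding RNA, with 25.5 CPM in myb30, 17.4 CPM in MYB30-OE and 17.3 CPM in Col and a log2 fold change of 0.55 in the authors' deposited table. In MYB30-OE it was UPF3, a factor of nonsense-mediated decay, with 0.27 in the authors' deposited table. The median over the 21 genes was 0.13 in myb30 and 0.03 in MYB30-OE, beside 0.01 and 0.00 over all rows with reads.

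Among microRNA genes, 1 was higher and 0 lower of 28 with reads in myb30 against Col, beside 10.8% and 10.7% of all rows. The counts were 0 and 0 of 26 in MYB30-OE against Col, beside 5.99% and 5.49%. In myb30 against MYB30-OE 2 were higher and 0 lower of 29, beside 16.2% and 15.4%. At an unadjusted p under 0.05 these counts were 2 and 1, 0 and 1, and 2 and 0. The 2 are the precursors of miR5642a and miR5642b. Their mature sequences are printed from RefSeq TAIR10.1 because they are identical, with bases 2 to 8 in capitals.
miR5642a (AT3G06345, chr3:14197116-14197135, + strand): tCTCGCGCttgtacggcttt
miR5642b (AT2G03855, chr2:3145-3164, + strand): tCTCGCGCttgtacggcttt

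MIR5642b (AT2G03855) had 0.397 CPM in myb30, 0.158 CPM in MYB30-OE and 0.110 CPM in Col, a log2 fold change of 1.79 in myb30 against Col in the authors' deposited table (Benjamini-Hochberg adjusted p = 0.00732). MIR5642a (AT3G06345) had 19.2 CPM in myb30, 12.7 CPM in MYB30-OE and 14.8 CPM in Col and passed the test only between the lines, with 0.58 in the authors' deposited table (Benjamini-Hochberg adjusted p = 0.000214). Each has 2 near-identical copies in the genome, so reads could be split among them. AT3G06355, beside MIR5642a on chromosome 3, was the highest of all these loci, with 85.7 CPM in myb30, 63.4 CPM in MYB30-OE and 65.3 CPM in Col. It contains the annotated ribosomal RNA gene AT3G41979, whose row had 0 reads, and has a near-identical copy as well. MIR5642a thus lies near an annotated ribosomal RNA gene. Reads of longer RNAs over MIR5642a or MIR5642b cannot be told apart from reads of the microRNA precursors. The log2 fold change of AT3G06355 in myb30 was 0.38 in the authors' deposited table (Benjamini-Hochberg adjusted p = 0.0128).

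Per kb of exon, AT3G06355 had a mean of 142 CPM per kb and AT2G11225, a protein-coding locus, 67.6 CPM per kb. MIR5642a and AT5G02575 followed at 41.6 and 39.8 CPM per kb. Of the other loci named for their high level in CPM, AT1G07323, AT4G01395 (COG4, a subunit of the Golgi tethering complex) and AT3G09455 had 23.3, 19.7 and 19 CPM per kb, and several loci of lower CPM had more per kb than these. These means have no spread between libraries, so whether neighbours in this order differ cannot be told.

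Of the protein-coding loci absent from TAIR10, 9 were higher and 9 lower of 326 with reads in myb30 against Col. The shares of all rows were 10.8% and 10.7%. The counts were 6 and 9 of 334 in MYB30-OE against Col, beside 5.99% and 5.49%. They were 19 and 17 of 343 in myb30 against MYB30-OE, beside 16.2% and 15.4%. AT2G11225 had 46.2 CPM in myb30, 79.6 CPM in MYB30-OE and 69.4 CPM in Col, a log2 fold change of -0.60 in myb30 against Col in the authors' deposited table (Benjamini-Hochberg adjusted p = 0.00204). AT4G16857, annotated as a disease resistance protein of the TIR-NBS-LRR class, had 0.838 CPM in myb30, 2.94 CPM in MYB30-OE and 2.14 CPM in Col, with -1.35 in the authors' deposited table (Benjamini-Hochberg adjusted p = 1.51e-05). Both were lower in the mutant, and their levels in MYB30-OE were not called different from Col. AT1G52245, annotated as a dynein light chain-like protein, had 12.8 CPM in myb30, 8.89 CPM in MYB30-OE and 6.94 CPM in Col, with 0.87 in the authors' deposited table (Benjamini-Hochberg adjusted p = 9.95e-06). AT5G38865 and AT1G72275 fell less far in myb30, with -0.46 and -0.53 in the authors' deposited table. AT5G36907 had 2.14 CPM in myb30, 0.497 CPM in MYB30-OE and 0.608 CPM in Col, with 1.78 in the authors' deposited table (Benjamini-Hochberg adjusted p = 4.6e-09). Several of these loci lie largely in TAIR10 exons, with 100% of the exon bases of AT2G11225, 74.35% of AT1G52245 and 75.5% of AT1G72275. For AT2G11225, though, no overlapped TAIR10 gene with a row of its own was found. For AT4G16857, AT5G38865 and AT5G36907 the shares were 5.87%, 23.2% and 0%.

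Several protein-coding loci were called in MYB30-OE against Col and not in myb30 against Col. AT5G03355, annotated as a cysteine- and histidine-rich C1 domain protein, had 9.66 CPM in MYB30-OE and 5.91 CPM in Col, a log2 fold change of 0.71 in the authors' deposited table (Benjamini-Hochberg adjusted p = 0.00016). AT1G11303, annotated as an S-receptor-like kinase with a lectin domain, had 7.13 CPM in MYB30-OE and 10.3 CPM in Col, with -0.53 in the authors' deposited table (Benjamini-Hochberg adjusted p = 0.00167). AT1G43605 had 0.520 CPM in MYB30-OE and 1.52 CPM in Col, with -1.56 in the authors' deposited table (Benjamini-Hochberg adjusted p = 9.35e-06). AT3G10605 had 0.919 CPM in MYB30-OE and 1.60 CPM in Col, with -0.80 in the authors' deposited table (Benjamini-Hochberg adjusted p = 0.0243). In myb30 the first 3 had 5.72, 11.6 and 1.38 CPM. All 4 were also called between myb30 and MYB30-OE. Of the exon bases of AT5G03355 and AT1G11303, 98.7% and 96.7% lie in TAIR10 exons, and for AT1G43605 and AT3G10605 the share was 0%.

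Besides AT1G04247, 2 protein-coding loci moved in opposite directions in the lines. AT1G64795 (chr1:24082579-24082848, + strand) lies on the other strand of ILA, a HEAT-repeat protein needed for plant immunity, and had 0.0257 CPM in myb30, 1.94 CPM in MYB30-OE and 0.269 CPM in Col. With 3 reads in myb30, the reads in Col were 9.33 times as many, with an exact 95% interval of 2.88 to 48.0. In MYB30-OE its log2 fold change against Col was 2.84 in the authors' deposited table (Benjamini-Hochberg adjusted p = 3.48e-16). ILA had 193 CPM in myb30, 167 CPM in MYB30-OE and 166 CPM in Col and was not called. AT1G75945 went the other way, with 2.37 CPM in myb30, 0.0436 CPM in MYB30-OE and 0.222 CPM in Col. Its log2 fold changes in the authors' deposited table were 3.36 in myb30 against Col (Benjamini-Hochberg adjusted p = 2.56e-19) and -2.26 in MYB30-OE against Col (Benjamini-Hochberg adjusted p = 0.049). The last of these lies close to the threshold.

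Of 5 transposable element genes with reads 1 was called in myb30 against Col, beside 21.5% of all rows. It was AT5G24275, annotated as an En/Spm-like transposon protein, which had 0.743 CPM in myb30, 0.0891 CPM in MYB30-OE and 0.289 CPM in Col. It rose by 1.31 on the log2 scale in myb30 in the authors' deposited table (Benjamini-Hochberg adjusted p = 0.0182). AT1G53945, annotated as a polyubiquitin-like protein, had 0.227 CPM in myb30, no read in MYB30-OE and 0.0205 CPM in Col, which is at least 7.93-fold higher in myb30 than in MYB30-OE against a floor of 3 reads over the 3 libraries.

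Of 8 long non-coding RNAs with known roles in Arabidopsis (IPS1, AT4, ELENA1, DRIR, FLORE, APOLO, ASCO and MARS), none is among the loci described. The first 7 are in the TAIR10 annotation, and MARS has no row in the tables.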

How the data were processed

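The authors deposited, per the file headers, an average log2 CPM, a log2 fold change and an unadjusted p-value for each locus in each of 3 comparisons. TopHat, Cufflinks, Cuffdiff and TAIR10 are named, without versions, per the submitters' processing notes, and the columns are not those of Cuffdiff, so the tool behind them is not given here. The deposited log2 fold change, in the authors' files the genotype named second over the one named first, was turned into myb30 over Col, MYB30-OE over Col and myb30 over MYB30-OE by the direction of MYB30. The 3 tables of transposable elements were not used. Loci were kept in a comparison if the average lay above its lowest value, which marks 0 reads.

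Deposited p-values were adjusted here by the Benjamini-Hochberg method over all rows with reads, with a threshold of 0.05. The design had assumed adjusted values. Levels in CPM and reads per genotype were derived from the authors' deposited average and fold change, taking 2 added reads per library in the average, 0.125 in the fold change and equal library sizes. They are approximations, and the level of Col in one comparison was a median of 1.02 times that in the other. The derivation and the adjustment were tested on simulated data made with the same added reads and equal library sizes. That test therefore could not check these settings. The exact 95% intervals and the floor of 3 reads account for counting error alone, and they take each read as independent. Even totals were in excess among low rows. In myb30 against Col, 908 rows had 2 reads over the 6 libraries, beside 499 with 1 and 277 with 3. Likewise 407 rows had 4 reads, beside 196 with 5. Reads may thus not be independent, and the intervals may be too narrow. The cause was not tested. Copies were sought with blastn 2.17.0 (at least 95% identity over at least 80% of a locus). Deposited TAIR10 positions were read on the TAIR10.1 genome after a check in which 99.96% of 35176 coding transcripts began with ATG. Python 3.11.15, pandas 2.3.3 and scipy 1.17.1 were used.

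The loci, gene lists and tests were chosen with earlier results of these data known. Loci are named if they are, per comparison, among the 10 widest rises or falls past the threshold (mean of at least 1 CPM), the 3 widest of each class or the 10 of highest level, and others named are said to be chosen after their values were seen. AT5G07105 is named by the comparison of the lines. Also, 1 further locus was left out by the selection and is not reported here.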

Additional observations from a re-analysis of the deposited data

How the results depend on the processing

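No paired analysis was possible because the deposited tables hold no values of single libraries. For the same reason no replicate was left out in turn, and no fit with another normalization was run. The counts of loci called in myb30 against Col, MYB30-OE against Col and myb30 against MYB30-OE were 73, 31 and 109. At an adjusted p of 0.01 they were 35, 10 and 65, after Bonferroni adjustment 14, 5 and 17, and at a mean of 1 CPM or more 19, 8 and 32. Among loci that overlap no TAIR10 gene the count in myb30 against Col was 43, 29 higher and 14 lower where 38 and 35 were so among all of them. In myb30 against MYB30-OE 55 were higher and 21 lower, where 66 and 43 were so, and in MYB30-OE against Col 7 and 15, where 13 and 18 were so. With no filter on reads or with at least a 2-fold change, the counts stayed within 1.5 times those of all loci. Centring on the median leaves the p-values as they are, so it could not change a count. Few of the loci are pseudogenes or transposable element genes, so leaving these out could change little, and the counts were 72, 31 and 108. The median log2 fold changes were -0.12, -0.09 and -0.04. At a mean of 1 CPM or more they were 0.055, -0.042 and 0.12, and with a pseudocount of 1 CPM -0.0058, -0.011 and -0.0022. Without loci that overlap a TAIR10 gene they were -0.11, -0.046 and 0.084. After centring, the medians in myb30 against Col and in myb30 against MYB30-OE were -0.14 and -0.068. The sign of the median in the comparisons of myb30 thus depends on which loci enter, and the cause was not tested. A pseudocount of 1 CPM cannot change the sign of a fold change, and all 104 recomputed for named loci changed in size. In myb30 against Col, the log2 fold change went from 5.21 to 0.18 for AT5G00885, at a low level. For AT3G06355, at the highest level, it went from 0.379 to 0.374. Depth limits what can be read from the lowest levels: 1108 of the 1572 loci with reads in myb30 against Col had a mean under 0.1 CPM, and 9 of them were called. Its part in the low shares of calls was not tested.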
